A study of Mus musculus with 14 samples.

Results

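Genes that make and move cholesterol were followed in tumours of HIF-2α deficient mice and in tumours of control mice. HIF-2α, the product of Epas1, is a transcription factor that is stable only when oxygen is low. The set was given by name: 32 genes of cholesterol synthesis, sterol sensing and sterol transport. Of these, 29 had a probeset that the array's annotation assigns to 1 gene, out of 12393 genes with such a probeset in all, and Acat2, Insig1 and Soat1 had none and are not analysed here. For each gene the probeset with the highest mean over all 14 arrays was used, so level chose the probeset. The low level of Sec14l2 in deficient tumours was known from an earlier analysis of these arrays when the genes were listed, and its difference is therefore given as a description with no test.

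Total RNA of 7 HIF-2α deficient tumours and 7 control tumours was measured on Affymetrix mouse expression arrays. All mice had a mixed 129 SvJ/C57Bl6 background. The series title and sample titles call the first group a knockdown while the genotype label says deficient. The labels name neither the organ nor the driver of the tumours, nor the age of the mice, the part of Epas1 that was lost, or the alleles of the controls. The deposited values are GCRMA levels on a log2 scale, so a difference of 1 is a 2-fold change. Levels of different probesets are not set against each other.

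Cells build cholesterol from acetyl-CoA through the mevalonate pathway, which leads to farnesyl diphosphate, then through squalene to lanosterol, and from lanosterol through a chain of sterol intermediates to cholesterol. When membrane sterol is low, SCAP carries the precursor of SREBP-2, the product of Srebf2, from the endoplasmic reticulum to the Golgi, where it is cut to release a transcription factor that activates nearly every enzyme of the chain. INSIG proteins hold SCAP back when sterol is plentiful, and the ABC transporters ABCA1 and ABCG1 export the excess. In the lung, alveolar type II cells put cholesterol into surfactant, and alveolar macrophages take surfactant lipid up and export cholesterol.

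Promoter sequence is shown for 7 of the synthesis genes, because the synthesis genes varied together from tumour to tumour. Of the 7, Cyp51, Idi1, Msmo1 and Lss were the 4 genes with 1 listed start that followed the rest most closely. Ebp was the gene that followed least, and Sec14l2 was shown as well. Hmgcs1 was the only member with a promoter entry that held the sterol response element in the exact letters given below. Other forms of that element were not searched. Each line gives the 150 bases before the RefSeq transcription start in assembly GRCm38.p6, 5′ to 3′ on the gene's strand. Capitals mark the CCAAT box bound by NF-Y (CCAAT), the GC box bound by Sp1 (GGGCGG) and the sterol response element bound by SREBP (TCACNCCAC), each searched on both strands.
Cyp51, chr5:4104698-4104847, minus strand: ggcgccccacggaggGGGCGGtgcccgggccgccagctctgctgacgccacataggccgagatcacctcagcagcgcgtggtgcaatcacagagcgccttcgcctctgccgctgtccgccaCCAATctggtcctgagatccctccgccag
Idi1, chr13:8885456-8885605, plus strand: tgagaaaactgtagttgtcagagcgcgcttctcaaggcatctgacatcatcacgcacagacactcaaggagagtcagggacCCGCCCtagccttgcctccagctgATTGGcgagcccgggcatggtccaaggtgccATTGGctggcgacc
Msmo1, chr8:64733579-64733728, minus strand: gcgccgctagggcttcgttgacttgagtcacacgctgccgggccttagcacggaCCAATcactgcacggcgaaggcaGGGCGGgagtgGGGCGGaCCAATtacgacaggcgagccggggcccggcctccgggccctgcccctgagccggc
Lss, chr10:76531455-76531604, plus strand: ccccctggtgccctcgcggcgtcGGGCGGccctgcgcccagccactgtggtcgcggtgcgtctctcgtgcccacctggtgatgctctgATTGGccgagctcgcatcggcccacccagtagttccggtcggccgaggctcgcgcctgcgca
Hmgcs1, chr13:119690201-119690350, plus strand: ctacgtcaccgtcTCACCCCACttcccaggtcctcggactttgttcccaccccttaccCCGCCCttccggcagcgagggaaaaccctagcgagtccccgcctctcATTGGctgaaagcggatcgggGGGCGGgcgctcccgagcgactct
Ebp, chrX:8193513-8193662, minus strand: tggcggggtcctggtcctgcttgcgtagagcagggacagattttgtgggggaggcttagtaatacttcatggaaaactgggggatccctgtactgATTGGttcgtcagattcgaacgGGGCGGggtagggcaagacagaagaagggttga
Sec14l2, chr11:4118730-4118879, minus strand: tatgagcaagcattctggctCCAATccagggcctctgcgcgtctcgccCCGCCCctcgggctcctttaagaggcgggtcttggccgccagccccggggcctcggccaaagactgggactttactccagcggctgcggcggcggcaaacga

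The search was run over 300 bases, 250 before and 50 after each start, for the 25 of 32 genes with an entry, counting a gene if any of its listed starts held a match. Tested genes were counted in the same way. The shares of all promoters count each listed start by itself, so they are not in the same unit as the shares of genes. A CCAAT box was present for 17 of the 18 synthesis genes with an entry and for 22 of all 25 members (88.0%), against 42.5% of the 6328 genes tested on the arrays that have an entry and 37.4% of all 32851 promoters. In the lines above, Idi1 and Msmo1 each hold 2 CCAAT boxes and the other 5 genes hold 1. A GC box was present for 23 of 25 members (92.0%), against 70.5% of tested genes and 35.7% of all promoters. The sterol response element in these exact letters was found only for Hmgcs1, where it starts 137 bases before the transcription start, against 1.37% of tested genes and 1.24% of all promoters. The core of the HIF binding site was searched on both strands in its 2 forms. The form ACGTG was found for 6 of 25 members, against 30.3% of tested genes and 19.6% of all promoters. The form GCGTG was found for 15 of 25 members, against 57.5% of tested genes and 32.4% of all promoters. The Sec14l2 window held neither form. A match is a description of letters and does not show binding.

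Across tested probesets, pairs of deficient arrays had an r of 0.839 to 0.971 and pairs of control arrays an r of 0.923 to 0.991. Deficient 3 stood farthest from the rest, with a median r of 0.905 with the other 13 arrays. Each array description opens with a number that, read without its last digit, takes 6 values, 4 among deficient and 2 among control arrays. No source used here gives its meaning, and this reading of it (the leading number below) is a choice made here. Arrays that share it may not be separate samples, in which case the p-values are too small. The next number in the descriptions runs on from the deficient to the control arrays, so any order of handling that it records cannot be told apart from the groups. The single Epas1 probeset read 5.65 ± 0.51 in deficient and 5.84 ± 0.69 in control tumours (SD, n = 7 each), a difference of -0.19 (SE 0.30, limma adjusted p = 0.807). The lost part of Epas1 is not given, so this probeset may lie outside it and is no check of the labels. In whole tumours, fewer cells of a type and less RNA per cell cannot be told apart.

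No cholesterol gene passed the adjusted threshold between the groups, and the levels of all tested members except Sec14l2 overlapped. Of the 29 genes, 28 passed the filter on low values (a log2 level above 4 in at least 7 of 14 arrays), and each of the 28 exceeded 4 in all 14 arrays. Hsd17b7, a keto-steroid reductase of the lanosterol branch, stayed below 4 on every array (2.66 ± 0.34 in deficient and 2.40 ± 0.05 in control tumours) and was not tested. At an adjusted p under 0.05, 0 of 28 passed in limma, where 0.0394% of all 12701 tested probesets did. At an unadjusted p under 0.05, 3 of 28 were lower in deficient tumours (Sec14l2, Ebp and Pmvk), where 6.57% of all tested probesets were lower, and 0 of 28 were higher, where 8.09% of all were. Nothing is read from the place of Sec14l2 in that count, since its difference was known when it was listed. Pmvk no longer passed this unadjusted threshold without deficient 2, 3 or 6 or without control 1 or 4, and Ebp no longer passed it with a random block by leading number. The differences leaned to the lower side, with 21 of 28 genes below 0 against 47.4% of all tested probesets, and a median of -0.22 against 0.016 over all probesets. Because these genes moved together across arrays, they are not 28 separate observations, and the lean shrank to 16 of 28 without deficient 3 and 6, where 49.2% of all probesets were below 0.

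**Figure D1:**
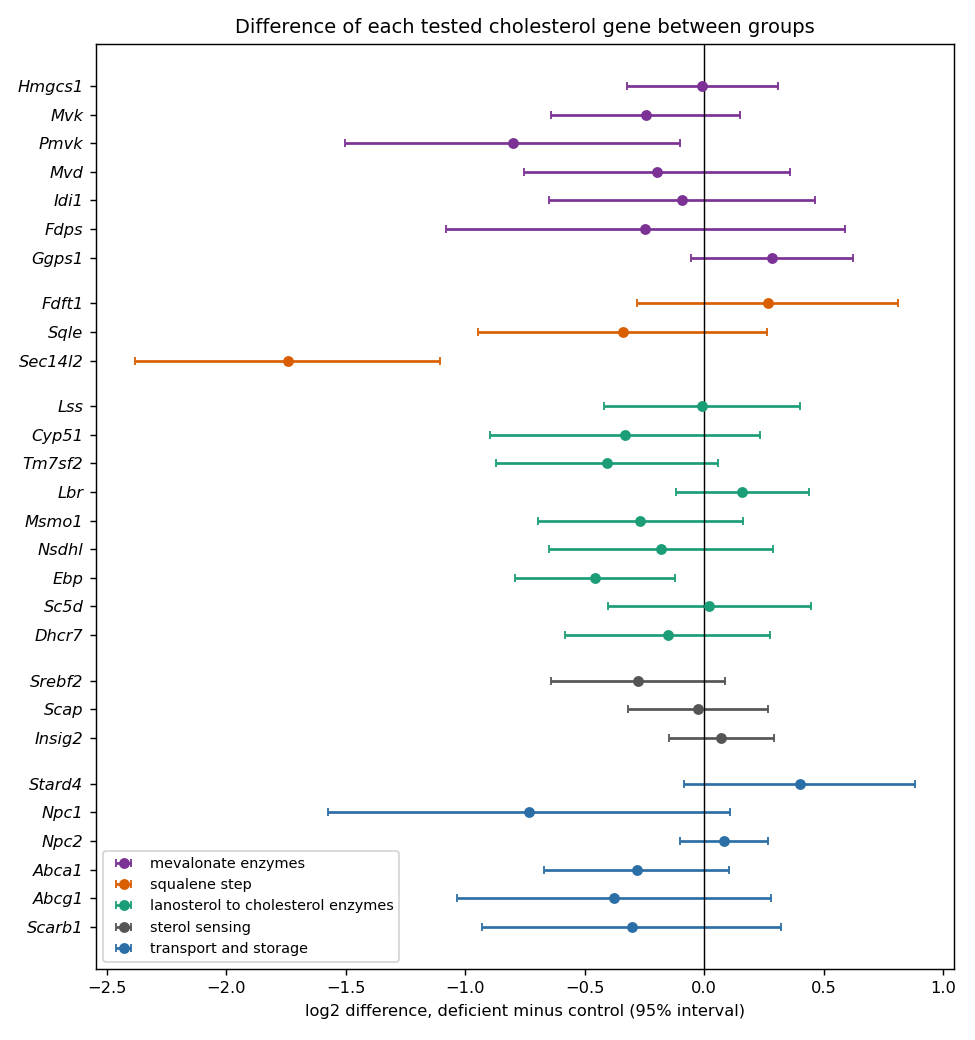
Log2 difference, deficient minus control, for the 28 tested cholesterol genes (points) with the 95% interval of the limma fit (bars), grouped by role. The interval of Sec14l2 runs from -2.38 to -1.10 and overlaps those of Npc1 and Pmvk; those of Pmvk and Ebp also lie below 0, and the rest include 0.

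Sec14l2 encodes a lipid-binding protein of the SEC14 family, also called supernatant protein factor, which stimulates squalene epoxidase in cell-free assays and binds tocopherol. Its level was 5.62 at the lowest, 6.22 at the median and 7.37 at the highest in deficient tumours, against 7.39, 7.85 and 9.33 in control tumours. Every deficient array lay below every control array, deficient 1 being only just below control 6. Among all tested probesets, 0.173% had groups that did not overlap with deficient lower. Sec14l2 was listed with its low level known, so nothing is read from that share. The group means were 6.32 ± 0.57 and 8.06 ± 0.63 (SD, n = 7 each), a difference of -1.74 (SE 0.30), or 3.35-fold lower. Over the 14 fits with 1 array left out, the difference ran from -1.92 to -1.53. With arrays of 1 leading number treated as a random block, it was -1.86 (SE 0.41) for Sec14l2.

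The mean centred levels of airway epithelium markers also had lower averages in deficient tumours, with ranges that overlapped barely for club and widely for ciliated markers. For club and secretory cells, 12 markers passed the filter. Their mean centred level ran from -1.73 to -0.331 in deficient and from -0.335 to 2.06 in control tumours. Only deficient 1 and control 1 kept these ranges from being separate. For ciliated cells, 6 markers passed and their mean centred level ran from -2.83 to 1.26 in deficient and from -0.52 to 3.26 in control tumours. Some of these markers passed the filter mainly through high levels in control tumours: Rsph1, Spag6l, Tekt1, Mlf1 and Ltf exceeded 4 in only 8 or 9 of 14 arrays, with deficient medians of 2.46 to 3.54. Nothing is therefore read from how many markers were lower, and the scores used as covariates share this limit. Foxj1, the defining regulator of ciliated cells, averaged 2.49 in deficient and 4.25 in control tumours and did not pass the filter. With the ciliated score of each array as a covariate, the difference of Sec14l2 was -1.64 (SE 0.43), and with the club score it was -2.31 (SE 0.53). Both scores differed between the groups, and the club score all but split them. Its markers did not move alike: their differences ran from -6.51 for the secretory gene Ltf to 0.06 for the club cell gene Scgb1a1. The club score is therefore no measure of club cells alone. Group and the cell content that the scores stand for cannot be told apart in these fits, and their values are descriptions with no test.

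**Figure D2:**
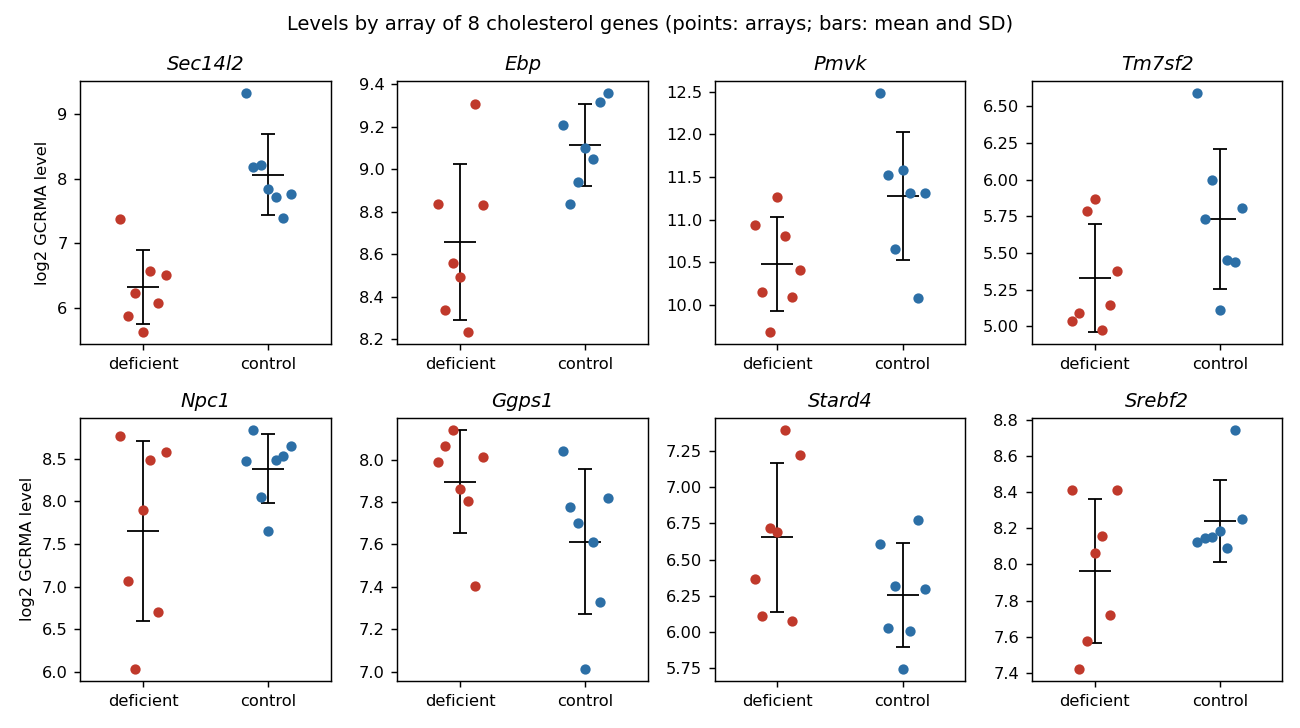
Log2 level on each array (points, replicates 1 to 7 from left to right in each group) with the group mean and SD (bars), for the 8 tested members whose groups stood farthest apart against their spread. Of these, only Sec14l2, which was listed for its difference, has groups that do not overlap; the vertical axes differ between panels and do not start at 0.

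Squalene epoxidase itself and squalene synthase gave no such gap. Sqle, which encodes squalene epoxidase, a rate-controlling enzyme of the sterol branch, read 6.18, 7.34 and 8.31 at the lowest, median and highest in deficient tumours, against 6.93, 7.79 and 8.24 in control tumours. Deficient 6 lay below the control range, deficient 1 just above it and the other 5 within it, and the difference was -0.34 (SE 0.28, limma adjusted p = 0.619). Fdft1, which encodes squalene synthase, differed by 0.27 (SE 0.26), and its other tested probeset by 0.07.

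Of the 7 measured enzymes of the mevalonate pathway and its isoprenoid branch, 6 were lower in deficient tumours and 1 was higher, and 0 passed the adjusted threshold. Pmvk, which encodes phosphomevalonate kinase, read 9.68, 10.41 and 11.26 at the lowest, median and highest in deficient tumours, against 10.08, 11.31 and 12.49 in control tumours. The groups overlapped, with control 6 among the lowest arrays and control 1 the highest. The difference was -0.80 (SE 0.33, limma adjusted p = 0.282) and -0.60 without control 1. Hmgcs1, the HMG-CoA synthase that opens the pathway, read 12.02 ± 0.34 in deficient and 12.03 ± 0.18 in control tumours (SD, n = 7 each), with a 95% interval of the difference of -0.32 to 0.31. Its brightest probeset differed by -0.0070 and the other 3 by 0.19 to 0.29, so its direction was not settled.

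Mvk, mevalonate kinase, and Mvd, the decarboxylase that makes isopentenyl diphosphate, differed by -0.24 (SE 0.19) and -0.20 (SE 0.26). Idi1, the isomerase of isopentenyl diphosphate, differed by -0.09 (SE 0.26), with 0.07 in its other probeset. Fdps, farnesyl diphosphate synthase, had the widest spread of these enzymes among deficient tumours, from 5.54 to 8.50 in deficient and from 6.25 to 7.98 in control tumours, and differed by -0.25 (SE 0.39). Ggps1, which makes the geranylgeranyl diphosphate used for protein prenylation rather than sterol, was the exception in sign. It read 7.41, 7.99 and 8.14 at the lowest, median and highest in deficient tumours, against 7.01, 7.70 and 8.04 in control tumours, an overlapping spread with a difference of 0.28 (SE 0.16, limma adjusted p = 0.423). All 4 of its tested probesets were higher in deficient tumours, by 0.24 to 0.47, and none passed the adjusted threshold.

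Of the 9 tested enzymes that turn squalene epoxide into cholesterol, 7 were lower in deficient tumours, 2 were higher and 0 passed. Ebp, the sterol isomerase that shifts the double bond of the ring, read 8.23, 8.56 and 9.31 at the lowest, median and highest in deficient tumours, against 8.84, 9.10 and 9.36 in control tumours. All deficient arrays except deficient 6 lay at or below the lowest control level. The difference was -0.46 (SE 0.16, limma adjusted p = 0.213), and -0.57 without deficient 6. Tm7sf2, a sterol reductase that acts after lanosterol demethylation, read 5.33 ± 0.37 in deficient and 5.73 ± 0.48 in control tumours, a difference of -0.41 (SE 0.22). Lbr, the lamin B receptor, which carries the same reductase activity in the nuclear envelope, read 9.79 ± 0.28 in deficient and 9.63 ± 0.17 in control tumours, a difference of 0.16 (SE 0.13). Whether the differences of Tm7sf2 and Lbr differ from each other was not tested.

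None of the other 6 tested enzymes of the chain passed the adjusted threshold. Lss, which closes the sterol rings, differed by -0.0083 (SE 0.19), and Sc5d, the lathosterol desaturase, by 0.02 (SE 0.20). Cyp51, the lanosterol demethylase, differed by -0.33 (SE 0.26), Msmo1, the methylsterol oxidase, by -0.27 (SE 0.20) and Nsdhl, the sterol dehydrogenase that acts with it, by -0.18 (SE 0.22). Dhcr7, which makes cholesterol from 7-dehydrocholesterol, differed by -0.15 (SE 0.20). The limma adjusted p of these 6 genes lay between 0.573 and 0.989. Their 95% intervals reached from -0.90 for Cyp51 to 0.45 for Sc5d.

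The synthesis genes varied together from tumour to tumour in both groups. After each group's mean was removed, the 153 pairs among the 18 tested synthesis genes other than Sec14l2 had a median Pearson r of 0.48 over the 14 arrays, and 48.4% of pairs exceeded 0.5. All 30190335 pairs among 7771 tested genes had a median r of 0.0067, and 11.0% exceeded 0.5. The 36 pairs among the 9 tested sensing and transport genes had a median r of 0.31, and 33.3% exceeded 0.5. For the 162 pairs between these and the synthesis genes, the median r was 0.31, and 29.0% exceeded 0.5. The shared variation was therefore not confined to the synthesis genes. Within the 7 deficient arrays the median of the synthesis pairs was 0.44, and within the 7 control arrays 0.54. It was 0.36 without control 4 and deficient 6, the arrays with the most extreme synthesis levels, and 0.45 without deficient 3 and 6. These values are descriptions with no test, since the points share arrays and the arrays may share an origin.

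**Figure D3:**
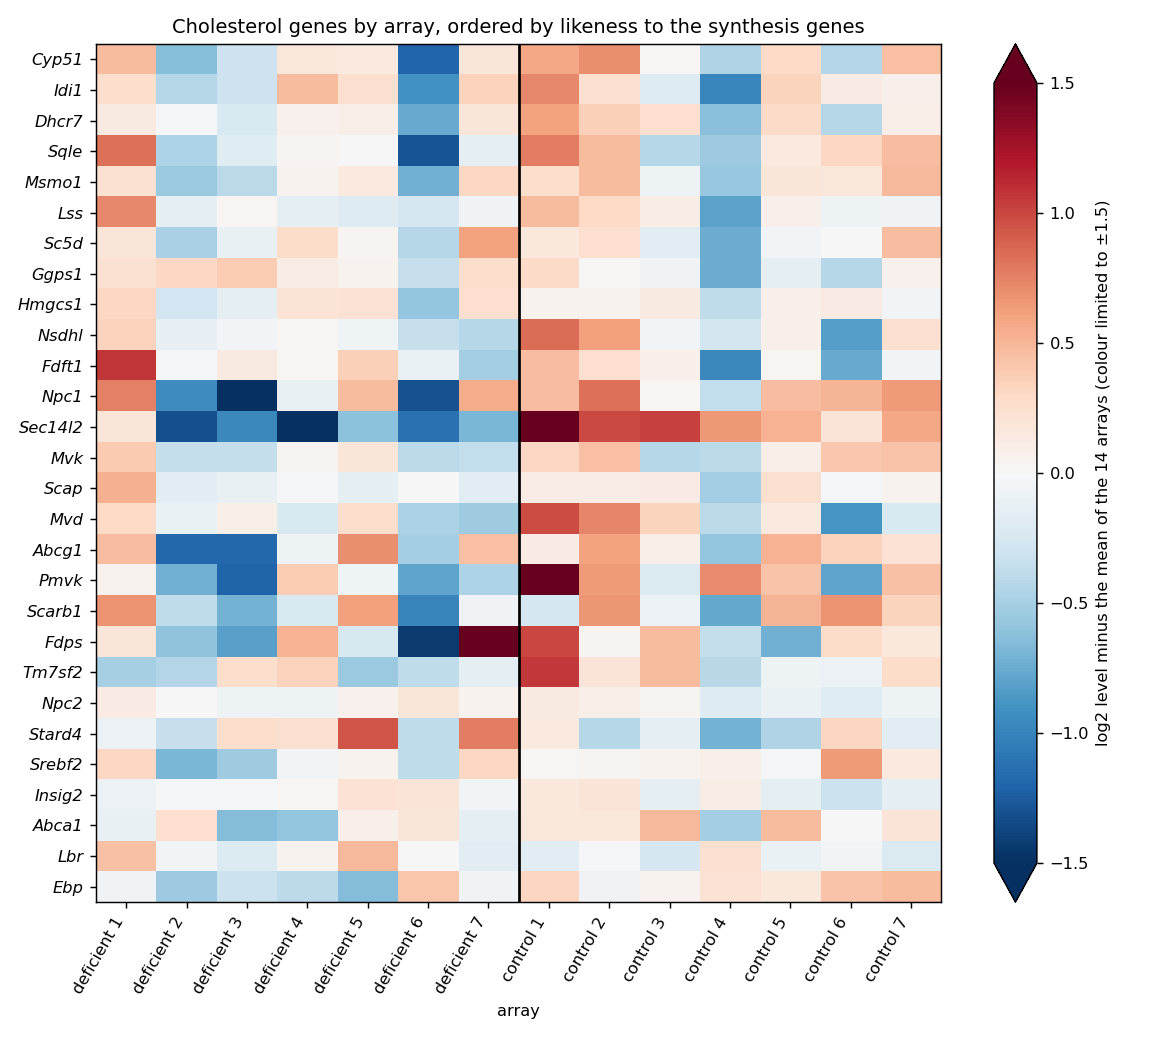
Log2 level of each of the 28 tested genes minus its mean over the 14 arrays, by array (columns, deficient left of the line and control right) and gene (rows, from most to least like the mean of the other synthesis genes). Control 1 and deficient 1 are red and control 4 and deficient 6 blue over most of the upper rows, while Sec14l2 is blue in 6 of 7 deficient arrays and red in all control arrays.

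The mean centred level of those 18 genes gives a synthesis score for each array. It ran from -0.55 in deficient 6 to 0.31 in deficient 1, with a median of 0.02, and from -0.42 in control 4 to 0.57 in control 1, with a median of 0.07. The group means were -0.08 ± 0.29 in deficient and 0.08 ± 0.32 in control tumours (SD, n = 7 each), and the ranges of the groups overlapped. By leading number, the score averaged -0.38 over deficient 3 and 6 and 0.17 over deficient 1 and 5. Control 1 and control 4 share a leading number and hold the highest and lowest score of their group. Other array traits moved with the score in places. The mean centred level of endothelial markers was 1.02 in deficient 1 and -1.85 in deficient 6, but 0.82 in control 6, whose score was -0.16. The 3′ to 5′ log2 difference of control probesets, a measure of RNA quality, was 1.99 in control 1 and 1.54 in control 4. Control 2, at 2.155, and deficient 1, at 2.085, had the highest values of their groups, with scores of 0.32 and 0.31. Control 6 had the lowest value of the control group, at 1.39, with a score of -0.16. Deficient 2, however, had a value of 1.86 with a score of -0.31. The 3′ to 5′ difference was lowest in deficient 7, at 1.09, where the score was 0.04. The part of these traits in the score was not tested.

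Cyp51 followed the other synthesis genes most closely, at r = 0.92 (Spearman rho 0.97), with 0.98 within deficient and 0.89 within control arrays. Next came Idi1 at 0.87, Dhcr7 at 0.86, Sqle at 0.84 and Msmo1 at 0.82, each also positive within both groups and without the 2 most extreme arrays (0.64 to 0.76 for these 4). Lbr, at 0.02, and Ebp, at -0.26, did not follow. Sec14l2 had an r of 0.65 with the score (rho 0.49), with 0.56 within deficient and 0.73 within control arrays, and 0.75 without the 2 most extreme arrays. Control 1 and deficient 1, the arrays with the highest synthesis score in their groups, also had the highest Sec14l2.

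**Figure D4:**
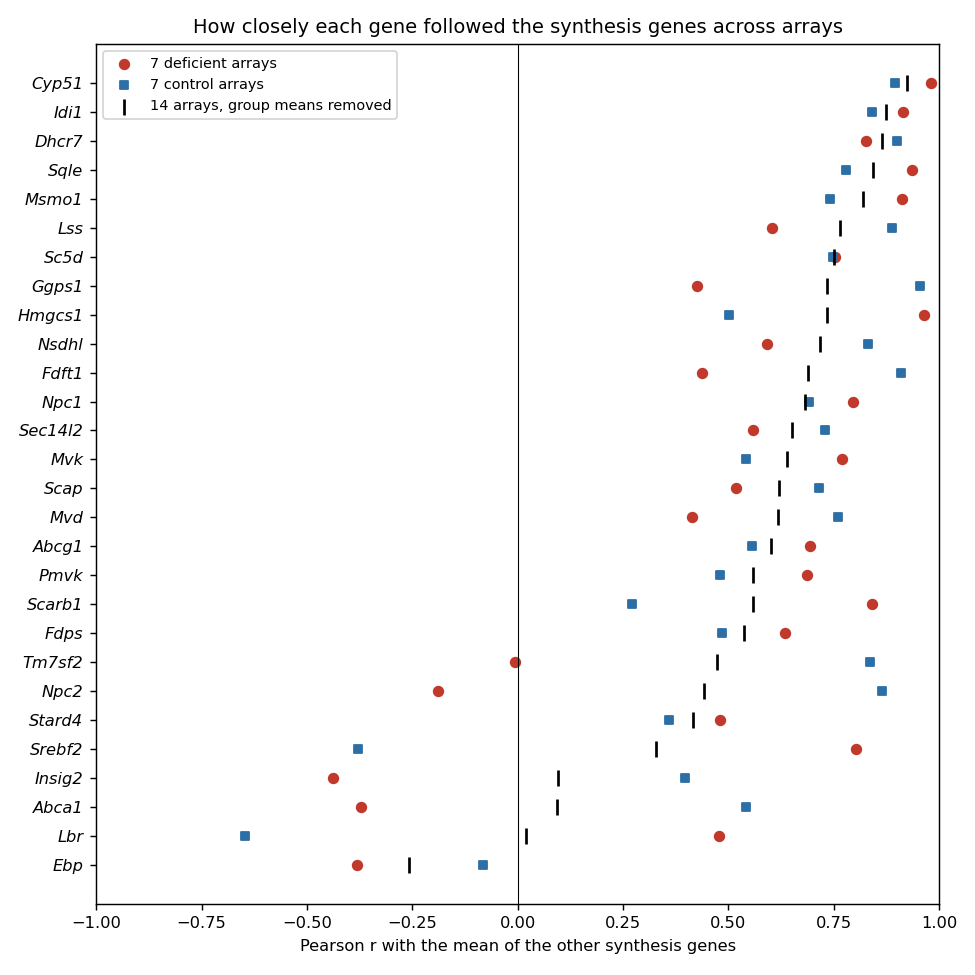
Pearson r between each gene's level and the mean of the other synthesis genes across the 7 deficient arrays (circles), the 7 control arrays (squares) and all 14 arrays after removal of group means (bars). Cyp51, Idi1 and Dhcr7 lie above 0.8 in both groups, while Srebf2, Lbr, Tm7sf2, Npc2, Insig2 and Abca1 have opposite signs in the groups.

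**Figure D5:**
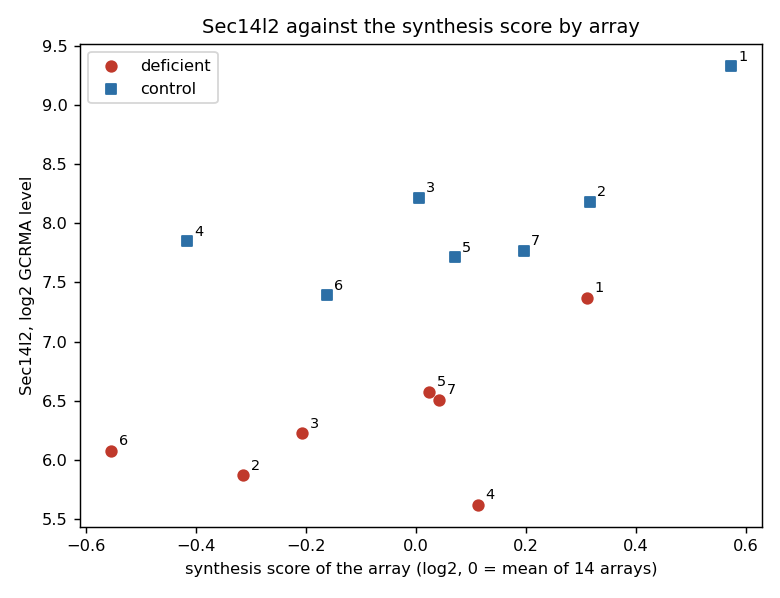
Log2 level of Sec14l2 against the synthesis score of each array (numbers give the replicate). Deficient arrays are circles and control arrays are squares. The groups do not overlap in Sec14l2, which was listed for its difference, so deficient arrays lie below control arrays at any score. Nothing is read from that order.

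The 3 measured genes of sterol sensing gave no call. Srebf2, which encodes SREBP-2, read 7.42, 8.06 and 8.41 at the lowest, median and highest in deficient tumours, against 8.09, 8.15 and 8.74 in control tumours. Deficient 2, 3, 4 and 6 lay below every control array and the other 3 within the control range. The difference was -0.28 (SE 0.17, limma adjusted p = 0.474), with -0.31 in its other probeset. Srebf2 followed the synthesis genes at r = 0.80 within deficient arrays and at -0.38 within control arrays, where control 6 alone stood high. Scap differed by -0.02 (SE 0.14). Insig2, the INSIG gene measured here, differed by 0.07 (SE 0.10), and its other probesets by -0.18 and 0.34.

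Of the 6 measured genes of sterol transport, 4 were lower in deficient tumours, 2 were higher and 0 passed. Npc1, the membrane protein that moves cholesterol out of lysosomes, read 6.04, 7.90 and 8.77 at the lowest, median and highest in deficient tumours, against 7.65, 8.48 and 8.84 in control tumours. Deficient 2, 3 and 6 lay below every control array, while the other 4 lay among the control arrays. The difference was -0.73 (SE 0.39, limma adjusted p = 0.404), -0.47 without deficient 3 and -0.22 without deficient 3 and 6. Its soluble partner Npc2, which hands cholesterol to NPC1 in the lysosome, varied little, at 13.42 ± 0.10 in deficient and 13.33 ± 0.13 in control tumours (SD, n = 7 each), and differed by 0.08 (95% interval -0.10 to 0.27).

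The exporters Abca1 and Abcg1 differed by -0.28 (SE 0.18) and -0.38 (SE 0.31), and the HDL receptor gene Scarb1 by -0.30 (SE 0.29), with all 3 of its probesets lower. Abcg1 was also lowest in deficient 2 and 3, at 8.82 and 8.81, against a control range of 9.40 to 10.60. Of 13 macrophage markers 11 were lower, and of 10 endothelial markers 10 were, against 47.4% of all tested probesets. Nothing is read from these counts. The macrophage markers had their lowest scores in deficient 2 and 3 as well, at -0.78 and -0.89, against -0.60 to 0.72 in control tumours. The part of macrophages in these levels was not tested. Endothelial markers were lowest in deficient 3 and 6, at -2.05 and -1.85, against -0.27 to 0.82 in control tumours, and their part in the levels of Npc1 and Scarb1 was not tested. With the ciliated score as a covariate, Npc1, Abcg1 and Scarb1 differed by 0.26, 0.31 and 0.60. Their sign thus depended on whether this score, which itself differed between the groups, was in the fit.

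Stard4, a cytosolic carrier of cholesterol that is itself a target of SREBP-2, lay on the other side. It read 6.08, 6.69 and 7.40 at the lowest, median and highest in deficient tumours, against 5.74, 6.30 and 6.78 in control tumours. Deficient 5 and 7 stood above every control array and the other 5 lay within the control range. The difference was 0.40 (SE 0.23, limma adjusted p = 0.426).

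Other genes of cholesterol metabolism were taken from a list of 57, of which 39 had a probeset assigned to 1 gene and 33 were tested. At the adjusted threshold 0 of 33 passed, against 0.0394% of all tested probesets. At an unadjusted p under 0.05, 2 of 33 were lower and 2 were higher, against 6.57% and 8.09% of all tested probesets, so these shares were no larger than the general ones. Of the 33, 22 lay below 0, against 47.4% of all tested probesets, with a median of -0.13.

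The 2 lower ones were Nr1h3 and Ch25h. Nr1h3 encodes LXRα, the oxysterol receptor that switches on Abca1 and Abcg1, and read 5.25, 5.73 and 6.03 at the lowest, median and highest in deficient tumours, against 5.93, 6.21 and 6.37 in control tumours. The groups overlapped only at their edges, and the difference was -0.51 (SE 0.13, limma adjusted p = 0.134). Ch25h, which makes the oxysterol 25-hydroxycholesterol, differed by -0.87 (SE 0.36, limma adjusted p = 0.289), and by 0.55 with the club score as a covariate.

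The 2 higher ones were Dhdds and Cd36. Dhdds, a subunit of the enzyme that extends farnesyl diphosphate to dolichol precursors, read 7.99 ± 0.15 in deficient and 7.60 ± 0.20 in control tumours (SD, n = 7 each), a difference of 0.39 (SE 0.11, limma adjusted p = 0.153). Cd36, a fatty acid and lipoprotein receptor, differed by 0.32, 0.41 and 0.54 in its 3 tested probesets, with limma adjusted p-values of 0.288, 0.155 and 0.132. In the second of these every deficient array lay above every control array, as in 0.323% of all tested probesets. Next in order came Pltp, the phospholipid transfer protein, at -0.72 (SE 0.35), Osbpl2, an oxysterol-binding protein, at 0.36 (SE 0.19), Acat1, the mitochondrial thiolase, at 0.17 (SE 0.09) and the lipoprotein receptor gene Lrp1 at -0.45 (SE 0.23). Srebf1, which encodes SREBP-1, the regulator of fatty acid synthesis, differed by -0.16 (SE 0.17).

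The tumours carried lung markers in both groups. Of 14 alveolar type II markers with a probeset 13 passed the filter, and their score ran from -0.50 to 0.24 in deficient and from -0.13 to 0.09 in control tumours. Sftpa1 read 13.94 ± 0.19 in deficient and 13.98 ± 0.11 in control tumours, and Egfl6 differed by 0.45. The widest marker difference was that of the secretory gene Ltf, at 3.49 ± 1.70 in deficient and 10.01 ± 2.92 in control tumours, while the club cell gene Scgb1a1 differed by 0.06. The ciliated gene Tppp3 differed by -2.32, the macrophage genes Adgre1 and Lyz2 by -0.78 and 0.02, the endothelial genes Sox18 and Cd93 by -1.05 and -0.07, the collagen gene Col6a1 by -1.07 and the mesothelial genes Igfbp6 and Gpm6a by -0.93 and -0.82. The 5 liver markers with a probeset failed the filter. Apoa2 averaged 3.55 in deficient and 3.20 in control tumours. Alb, the albumin gene, read 2.15, 2.80 and 7.78 at the lowest, median and highest in deficient tumours, against 2.24, 2.40 and 2.93 in control tumours, and exceeded 4 in 3 arrays, all deficient; its part in the other results was not tested. Of these markers 0 passed the adjusted threshold. RNA quality, read as the mean log2 difference between 3′ and 5′ control probesets of Gapdh and beta-actin, was 1.68 ± 0.34 in deficient and 1.79 ± 0.29 in control tumours.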

How the data were processed

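Trizol was used to extract total RNA and the label was biotin, per the labels' protocols. The deposited log2 values come from GCRMA, which the submitters' processing notes name (version not given in the sources used here). This method estimates background from each probe's bases, brings arrays to a common distribution and combines the probes of a set, so dim genes collect near a floor: the deposited log2 values ran from 2.12 to 15.4, and 43.8% were under 4.

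The table held 22690 probesets, 64 of them controls. An annotation of the platform that may be outdated assigns 20380 probesets to 1 gene and 691 to several. Probesets above 4 in at least 7 of 14 arrays (12701) were fitted with limma 3.58.1 in R 4.3.3 (lmFit, eBayes, 1 group term, two-sided), with Benjamini-Hochberg adjustment over all 12701. The fit was tested on simulated data. Precision is limited by having 7 arrays a group. The design assumed log2 values, as found.

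Members and lists were chosen with earlier results of these data known. The genes named are all members, Srebf1, Epas1, the 8 other cholesterol genes with the smallest p, and of each marker list the brightest and the one with the smallest p; Foxj1, Alb, 4 markers that passed the filter narrowly (Rsph1, Spag6l, Tekt1, Mlf1) and the second probesets were added after their values were seen. Some genes that the rule names are not reported here. The leading number is the first number of an array's description without its last digit. Same-numbered replicates did not pair the samples: 2 of 7 correlations of their deviations exceeded 0.1 (range -0.23 to 0.22). Gene names and promoters come from RefSeq, GRCm38.p6. Alternatives covered the filter, normalisation, variance model, array weights, blocks, covariates and arrays left out.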

Additional observations from a re-analysis of the deposited data

Results flagged for a closer look

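In 8 of the 76 gene-by-group sets of 7 arrays examined, the highest or lowest array was separated from its nearest neighbour by more than 0.568 of the group's range, where chance flags about 5%. Control 4 was low for Hmgcs1 (11.65, the next array at 11.99), Scap (7.07, next 7.55) and Abcg1 (9.40, next 10.09). Control 1 was high for Sec14l2 (9.33, next 8.22) and for the dolichol gene Dhdds (8.03, next 7.66). Deficient 1 was high for Lss (7.93, next 7.24) and Scap (8.11, next 7.58). Control 6 was high for Srebf2 (8.74, next 8.25). Control 4 and control 1 also held the lowest and highest synthesis score of the control group, and deficient 1 the highest of the deficient group.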

How the results depend on the processing

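Sec14l2 kept its direction under all alternatives run, from -2.31 with the club score as a covariate to -1.53 without control 1. Members past the adjusted threshold numbered 0 in the main analysis, 1 with the trend and robust variance, 1 with the replicate number as a block (replicate block) and 2 with array weights, and 0 to 1 with 1 array left out (1 without deficient 1, deficient 6, control 1 or control 4). Sec14l2 was in each count above 0, and nothing is read from that, since its difference was known when it was listed; the other gene with array weights was Npc1. Members at an unadjusted p under 0.05 numbered 3, and 12 with array weights, 2 with a random block by leading number (without Ebp), 2 without deficient 3 and 6 (without Pmvk) and 3 to 4 with 1 array left out. Over all probesets, 5 passed, against 0 with no filter, 9 with trend and robust variance, 1900 with array weights, 0 with the random block, 2 with the replicate block and 32 without deficient 3 and 6, and 0 to 85 with 1 array left out (0 without deficient 2 or 4; 1 without control 2, 5, 6 or 7; 11, 13 and 30 without deficient 1, 7 and 6; 85 without control 4). At an unadjusted p under 0.05, 1863 became 4106 with array weights and 600 with the random block. The cause of the high counts with array weights was not tested. Replicate numbers shared by the groups are only numbers, and 0 of 7 pairs correlated best with their own number.

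The median difference of the 19 tested synthesis genes was -0.20, -0.35 with array weights, and -0.28 (without control 4) to -0.064 (without control 1) with 1 array left out. That of the 9 sensing and transport genes was -0.28, and -0.31 (without deficient 5) to -0.16 (without deficient 6) with 1 array left out. Without deficient 3 and 6 together the medians were -0.10 and -0.02. No member had passed the adjusted threshold in the main analysis. Of 336 values of single members under alternatives other than single arrays left out, 33 changed sign. These and the other named genes that changed sign were, with quantile normalisation again, Lss 0.015 and Lyz2 -0.028, and with arrays centred on their median, Hmgcs1 0.0067 and Lss 0.0054. With array weights they were Fdft1 -0.024, Sc5d -0.19 and Lyz2 -0.029, and with the random block, Hmgcs1 0.0098, Lss 0.016 and Scap 0.0071. Without deficient 3 and 6 they were Hmgcs1 0.14, Idi1 0.13, Fdps 0.15, Lss 0.034, Dhcr7 0.013, Sftpa1 0.041 and Cd93 0.32, and with probesets averaged, Hmgcs1 0.18 and Sftpa1 0.032. With the ciliated score as a covariate they were Hmgcs1 0.24, Mvk 0.28, Idi1 0.29, Sqle 0.32, Lss 0.19, Cyp51 0.031, Msmo1 0.14, Srebf2 0.085, Scap 0.16, Insig2 -0.019, Npc1 0.26, Abcg1 0.31, Scarb1 0.60, Pltp 0.36, Lrp1 0.11, Epas1 0.56, Sftpa1 0.13, Cd93 0.89, Gpm6a 1.03 and Igfbp6 0.25. With the club score they were Mvk 0.13, Ggps1 -0.073, Scap 0.14, Insig2 -0.0020, Abcg1 0.24, Scarb1 0.32, Ch25h 0.55, Pltp 0.077, Lrp1 0.37, Epas1 0.36, Sftpa1 0.085, Cd93 0.45, Gpm6a 0.35 and Igfbp6 0.43. With 1 array left out, values crossed 0 for Hmgcs1 (-0.071 to 0.090), Idi1 (-0.26 to 0.051), Lss (-0.14 to 0.071), Sc5d (-0.10 to 0.10), Scap (-0.11 to 0.014), Sftpa1 (-0.081 to 0.023), Scgb1a1 (-0.0043 to 0.13), Lyz2 (-0.049 to 0.085) and Cd93 (-0.27 to 0.13).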

Other observations

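Outside the synthesis genes, 7753 tested genes were ranked by how closely their deviations from the group means followed the synthesis score over the 14 arrays. Srebf1, the regulator of fatty acid synthesis, ranked 49 at r = 0.76. Mbtps1, the protease that cuts both SREBP precursors, ranked 86 at r = 0.72. Thus 2 of the 33 other cholesterol genes were among the first 100 of all 7753, and nothing is read from that count. Others of the 33, named after their values were seen, lay near the opposite end. These were Nus1 at r = -0.58 (rank 7432), Trib1 at -0.53 (rank 7261) and Cyb5r3 at -0.46 (rank 6958). None of the 10 remaining members was among the first 100: Npc1 came at rank 156, and Srebf2 had an r of 0.33. Epas1 itself had an r of 0.56. The highest ranks were held by Tmem140 (r = 0.90), Bach2 (0.88), Slc15a3 (0.86), Mccc1 (0.86) and Map6 (0.85), which are on none of the lists used here. These 5 genes were chosen after their values were seen, and the correlations are descriptions over arrays that may share an origin.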
